A study of Mus musculus with 19 samples.

Results

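The 9 genes described here encode liver enzymes that detoxify aldehydes, epoxides and other reactive carbonyl compounds: the aldehyde dehydrogenases *Aldh3a2*, *Aldh2*, *Aldh1a1*, *Aldh1a7*, *Aldh1l1* and *Aldh1b1*, the epoxide hydrolases *Ephx1* and *Ephx2*, and the carbonyl reductase *Cbr1*. They were chosen by name from the 31053 genes of the count table, with their normalized expression in all 3 groups already known, so their own values are given as a description and without a test. All 9 had enough counts to enter every comparison.

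The data are gene counts from 3′-end RNA-seq of whole liver of male C57BL/6 mice (strain C57BL6J in the labels), 6 to 8 weeks old when used for the study. Livers came from vehicle-treated mice (PBS, 5 libraries), from mice treated with thioacetamide (TAA) and injected with AAV8 TBG eGFP (AAV-GFP, 7 libraries), and from TAA-treated mice injected with AAV8 TBG miR34b/c, a combination of vectors for miR-34b and miR-34c (AAV-miR-34b/c, 7 libraries). TAA is a hepatotoxin used to produce liver fibrosis, and it was given in rising doses for 12 weeks, with the vectors injected at week 10 and sacrifice 4 weeks later. Serotype 8 vectors mainly enter hepatocytes, and TBG, the thyroxine-binding globulin promoter, restricts expression to them. The labels name no vector for the vehicle-treated mice, so TAA and an AAV vector differ together between vehicle-treated and AAV-GFP-injected mice and cannot be told apart. The labels call the libraries of a group biological replicates.

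Aldehydes arise in hepatocytes from ethanol, from lipid peroxidation, from the breakdown of fatty alcohols and sphingolipids and from retinol, and NAD-dependent aldehyde dehydrogenases oxidize them to acids. Epoxides formed by cytochromes P450 on drugs or on fatty acids are opened by water to diols, a reaction catalysed by epoxide hydrolases. Carbonyl reductases take the opposite route for ketones and aldehydes and reduce them to alcohols. TAA is itself oxidized in hepatocytes to reactive metabolites, which damage protein and lipid around the central vein.

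Total counts were 2214073 to 4145454 in the vehicle libraries, 2463842 to 4383805 in the AAV-GFP libraries and 2717503 to 5208405 in the AAV-miR-34b/c libraries, and counts of the 9 genes ran from 55 (*Aldh3a2*) to 14959 (*Aldh2*) in a library. AAV-miR-34b/c libraries 1 and 2 stood apart from the other 5 of their group, with a coefficient of variation beyond counting noise of 0.346 to 0.480 in the 10 pairs across, against 0.0812 to 0.269 in the 10 pairs among the other 5. In AAV-GFP, libraries 6 and 7 differed from libraries 1 to 4 by 0.339 to 0.392, against 0.132 to 0.257 among libraries 1 to 4. Library 5 differed from both sets by 0.257 to 0.287. AAV-GFP libraries 6 and 7 were the highest of their group in *Aldh3a2*, *Aldh1a1*, *Aldh1a7*, *Ephx2* and *Cbr1*, and the lowest in *Aldh1l1* and *Aldh1b1*. Within groups, 6 pairs of libraries were closer to each other (0.0812 to 0.171) than the remaining 46 pairs (0.215 to 0.480), although they differed by more than counting noise. They are vehicle libraries 1 with 4 and 3 with 5, AAV-GFP libraries 1 with 2, and AAV-miR-34b/c libraries 1 with 2, 3 with 4 and 5 with 7. Whether such pairs share a cage, an extraction or a batch is not given in the sources used here. Losses of calls when they are summed to 1 sample are given below, by gene for the 9 genes and otherwise by gene or as a count of the list. For the markers of liver cell types such losses are not given. Expression is given as CPM, the counts of a gene relative to the library total, scaled to the TMM library size, and error as SD over libraries unless stated otherwise. In bulk liver, fewer cells of a type and less RNA per cell cannot be told apart.

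One of the microRNAs that the vectors deliver is miR-34b. It is shown because its seed, the part that pairs with target transcripts, can be compared with the 3′ UTRs of the 9 genes. The mature sequence from RefSeq (chr9:51103610-51103632, minus strand, GRCm38.p6) has its seed, bases 2 to 8, in capitals, and the *Aldh3a2* stretch has the 7 bases complementary to it in capitals.
mmu-miR-34b-5p: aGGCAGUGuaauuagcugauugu
Aldh3a2 3′ UTR: gctccaagcctCACTGCCttcctggggtc

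The 7 bases CACTGCC were searched on the transcript strand in the longest protein-coding transcript of each gene in the GENCODE annotation of GRCm38. *Aldh3a2* held 1 copy, at position 1125 of its 1457-base 3′ UTR. The 3′ UTRs of the other 8 genes did not hold these letters. Over all genes, 2954 of 20981 3′ UTRs (14.1%) held them. The match is a description of the sequence and was not tested as a site.

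*Aldh3a2* (ENSMUSG00000010025, chr11:61223417-61267464, minus strand) encodes the fatty aldehyde dehydrogenase of the endoplasmic reticulum, which oxidizes long-chain fatty aldehydes. It was lower in AAV-miR-34b/c libraries than in every library of the other groups. The 5 vehicle libraries had 60.1, 60.9, 85.1, 51.1 and 87.2 CPM. The AAV-GFP libraries lay between 65.9 and 146 CPM, with a median of 100.0, and the AAV-miR-34b/c libraries between 22.0 and 46.7 CPM, with a median of 28.4. Vehicle and AAV-GFP ranges thus overlapped, with 5 of 7 AAV-GFP libraries above all vehicle libraries, whereas neither range reached down to AAV-miR-34b/c. Group means were 68.9 ± 16.2 CPM (n = 5), 102 ± 30.9 (n = 7) and 32.1 ± 8.50 (n = 7), a 3.22-fold lower level in AAV-miR-34b/c than in AAV-GFP (log2 fold change −1.69, SE 0.21) and 2.14-fold lower than in vehicle (−1.10, SE 0.20). AAV-GFP against vehicle gave 0.58 (SE 0.21). The AAV-miR-34b/c libraries 1 and 2, which stood apart, had 26.6 and 33.8 CPM, within the 22.0 to 46.7 CPM of the other 5. Both lay outside the range of the other 5 in *Ephx1*, *Aldh1a1*, *Aldh2* and *Cbr1*, as given with each gene.

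**Figure D1:**
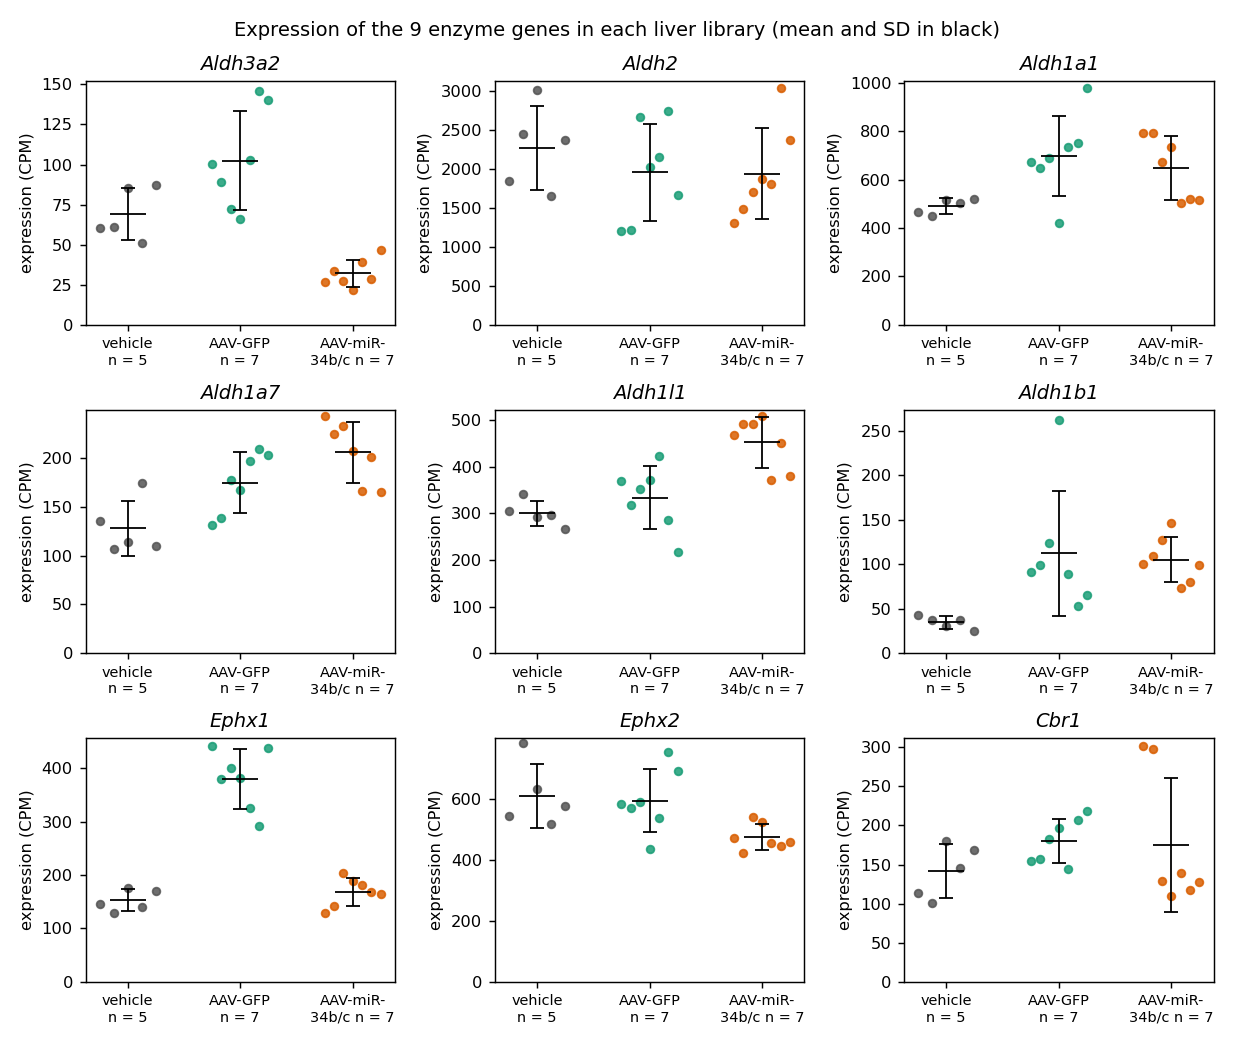
Expression of the 9 enzyme genes in CPM (vertical axes, linear from 0) in each liver library, by group. Points are libraries (5 vehicle, 7 AAV-GFP, 7 AAV-miR-34b/c), and black lines are the mean and SD. *Aldh3a2* separates AAV-miR-34b/c (22.0 to 46.7 CPM) from both other groups, *Ephx1* separates AAV-GFP (291 to 441 CPM) from both others, *Aldh1b1* separates vehicle (25.4 to 43.5 CPM) from both TAA groups, and *Cbr1* has 2 AAV-miR-34b/c libraries near 300 CPM.

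*Ephx1* (ENSMUSG00000038776, chr1:180976210-181020904, minus strand) encodes microsomal epoxide hydrolase, which acts on epoxides of drugs and aromatic hydrocarbons beside the cytochromes P450 of the endoplasmic reticulum. It was higher in AAV-GFP libraries than in every library of the other groups. Vehicle libraries had 146, 128, 176, 141 and 170.4 CPM. AAV-GFP libraries ran from 291 to 441 CPM (median 381) and AAV-miR-34b/c libraries from 129 to 203 CPM (median 168). No AAV-GFP library overlapped with a library of another group, while 3 of 7 AAV-miR-34b/c libraries lay above all vehicle libraries and the rest within their range. The means were 152 ± 20.3 CPM (n = 5), 379.6 ± 55.4 (n = 7) and 168 ± 26.1 (n = 7). AAV-GFP was thus 2.50-fold above vehicle (log2 fold change 1.32, SE 0.16), AAV-miR-34b/c was 2.28-fold below AAV-GFP (−1.19, SE 0.14), and AAV-miR-34b/c against vehicle gave 0.14 (SE 0.15). AAV-miR-34b/c libraries 1 and 2 had 129 and 141 CPM of *Ephx1*, below the 164 to 203 CPM of the other 5. The unprocessed pseudogene *Gm36961* overlaps the 3′ end of *Ephx1* on the same strand.

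*Ephx2* (ENSMUSG00000022040, chr14:66084374-66124500, minus strand) encodes soluble epoxide hydrolase, which converts epoxides of arachidonic acid to diols. The vehicle libraries had 544, 781, 632, 517 and 577 CPM. The AAV-GFP libraries ran from 436 to 753 CPM (median 583), and those of AAV-miR-34b/c from 424 to 539.8 CPM (median 457). All 3 ranges overlapped, with 5 of 7 AAV-miR-34b/c libraries below every vehicle library and 1 of 7 below every AAV-GFP library. Means were 610.4 ± 105 CPM (n = 5), 594 ± 103 (n = 7) and 474 ± 42.7 (n = 7), and the log2 fold changes were −0.04 (SE 0.17) for AAV-GFP against vehicle, −0.34 (SE 0.13) for AAV-miR-34b/c against AAV-GFP and −0.36 (SE 0.14) for AAV-miR-34b/c against vehicle. Scaled by library size only, *Ephx2* passed the threshold in both comparisons of AAV-miR-34b/c (−0.52 and −0.51), and by DESeq2 it did so against vehicle (−0.37). Its spread within AAV-miR-34b/c was the smallest of the 3 groups (coefficient of variation 9.01%, against 17.2% in vehicle and 17.4% in AAV-GFP).

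*Aldh1a1* (ENSMUSG00000053279, chr19:20492715-20643465, plus strand) encodes cytosolic retinaldehyde dehydrogenase, which makes retinoic acid and also oxidizes aldehydes of lipid peroxidation. *Aldh1a7* (ENSMUSG00000024747, chr19:20692953-20727562, minus strand) is its closest relative in rodents and lies beside it on the other strand. Both were higher in the TAA groups than in vehicle on average. *Aldh1a1* had 464, 449, 516, 503 and 521 CPM in the vehicle libraries, 419.7 to 979 CPM (median 690.3) in AAV-GFP and 502 to 794 CPM (median 671) in AAV-miR-34b/c. Of the AAV-GFP libraries, 6 of 7 lay above every vehicle library and 1, library 4, below every one. Of the AAV-miR-34b/c libraries, 4 of 7 lay above every vehicle library, and libraries 1 and 2, at 792 and 794 CPM, above the 502 to 734 CPM of the other 5. Group means were 491 ± 32.3 CPM (n = 5), 699 ± 165 (n = 7) and 647 ± 133 (n = 7), so the vehicle libraries were tighter (coefficient of variation 6.58%) than those of AAV-GFP (23.6%) and AAV-miR-34b/c (20.5%). The log2 fold change was 0.51 (SE 0.18) for AAV-GFP against vehicle, and 0.61 and then past the threshold without AAV-GFP library 4, 0.40 (SE 0.16) for AAV-miR-34b/c against vehicle and −0.12 (SE 0.18) for AAV-miR-34b/c against AAV-GFP. *Aldh1a1* in AAV-GFP against vehicle also passed by DESeq2 (0.52), scaled by library size only (0.57) and with at least 10 counts in every library (0.54).

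*Aldh1a7* had 135, 107, 113, 174 and 110.3 CPM in vehicle, 131 to 209 CPM (median 178) in AAV-GFP and 165 to 242 CPM (median 207) in AAV-miR-34b/c. Neighbouring groups in this order overlapped, and 5 of 7 AAV-miR-34b/c libraries lay above all vehicle libraries. Means were 128 ± 28.1 CPM (n = 5), 175 ± 30.9 (n = 7) and 205 ± 30.9 (n = 7), with log2 fold changes of 0.45 (SE 0.17) for AAV-GFP against vehicle, 0.22 (SE 0.15) for AAV-miR-34b/c against AAV-GFP and 0.68 (SE 0.16) for AAV-miR-34b/c against vehicle. Without vehicle library 4, the highest of its group, AAV-GFP against vehicle gave 0.60 and passed the threshold, as it did scaled by library size only (0.51).

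Since *Aldh1a1* and *Aldh1a7* are related by sequence, the reads could be shared between them. Their reference transcripts were identical at 89.0% of 2042 aligned bases, with a longest identical run of 100 bases. None of the 901 windows of 100 bases in the last 1000 bases of either transcript occurred whole in a transcript of another gene, and the same was true of the other 7 members. Only whole windows without a mismatch were compared. Nearly identical stretches, and shared stretches shorter than a window such as the overlap of *Gm36961* with *Ephx1*, were not assessed. Their promoters are shown because these relatives also share sequence upstream of a start site: 250 bases before and 50 after the start from RefSeq, for the downstream start of *Aldh1a1* (chr19:20601718-20602017, plus strand, GRCm38.p6) and for *Aldh1a7* (chr19:20727507-20727806, minus strand), each read 5′ to 3′ along the gene. Capitals mark the longest run that both share, 65 bases beginning 94 bases before the start.
Aldh1a1 promoter: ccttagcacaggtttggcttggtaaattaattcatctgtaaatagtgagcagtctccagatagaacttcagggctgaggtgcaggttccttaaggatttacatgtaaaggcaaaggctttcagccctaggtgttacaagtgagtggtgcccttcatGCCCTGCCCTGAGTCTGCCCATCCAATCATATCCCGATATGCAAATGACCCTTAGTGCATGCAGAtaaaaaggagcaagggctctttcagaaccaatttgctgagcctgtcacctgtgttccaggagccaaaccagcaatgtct
Aldh1a7 promoter: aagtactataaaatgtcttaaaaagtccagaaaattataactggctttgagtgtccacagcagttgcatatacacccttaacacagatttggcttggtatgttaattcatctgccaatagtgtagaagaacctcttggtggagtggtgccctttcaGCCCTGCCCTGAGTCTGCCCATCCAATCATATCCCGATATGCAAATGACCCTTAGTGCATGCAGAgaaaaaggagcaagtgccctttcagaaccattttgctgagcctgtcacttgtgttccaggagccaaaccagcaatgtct

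Position by position, 177 of the 300 bases (59%) were the same. A promoter of this length was matched by symbol for 7 of the 9 members, all but *Aldh2* and *Ephx2*. None of these windows held the antioxidant response element TGACNNNGC on either strand, which 12.4% of 32851 promoters of all genes held. The core of the xenobiotic response element, GCGTG on either strand, was present in 2 members (*Aldh3a2* and *Cbr1*) and in 32.4% of all promoters. A window without these letters says nothing of sites elsewhere.

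*Aldh2* (ENSMUSG00000029455, chr5:121566027-121593824, minus strand) encodes the mitochondrial enzyme that clears acetaldehyde. Its libraries spread widely in every group. Vehicle libraries had 1844, 2446, 3002, 1644 and 2369 CPM. AAV-GFP libraries ran from 1199 to 2742 CPM (median 2026) and AAV-miR-34b/c libraries from 1305 to 3030.0 CPM (median 1805). The 3 ranges covered one another for the most part, with 2 libraries of each TAA group below all vehicle libraries. These are libraries 1 and 2 in each case, at 1199 and 1219 CPM in AAV-GFP and at 1305 and 1486 CPM in AAV-miR-34b/c, where the other 5 had 1694 to 3030.0 CPM. Means were 2261 ± 536 CPM (n = 5), 1951 ± 626 (n = 7) and 1937 ± 587 (n = 7), and the log2 fold changes were −0.21 (SE 0.23), −0.02 (SE 0.22) and −0.22 (SE 0.21) for AAV-GFP against vehicle, AAV-miR-34b/c against AAV-GFP and AAV-miR-34b/c against vehicle.

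*Aldh1b1* (ENSMUSG00000035561, chr4:45799022-45804604, plus strand) encodes another mitochondrial aldehyde dehydrogenase, and in contrast to *Aldh2* it was higher in both TAA groups than in vehicle. The vehicle libraries had 43.5, 36.9, 30.1, 37.5 and 25.4 CPM. AAV-GFP libraries ran from 53.6 to 262 CPM (median 91.8) and AAV-miR-34b/c libraries from 73.9 to 147 CPM (median 100.0). Every library of both TAA groups was above every vehicle library, and the 2 TAA groups overlapped. Means were 34.7 ± 7.02 CPM (n = 5), 112 ± 69.9 (n = 7) and 105 ± 25.5 (n = 7), a 3.24-fold higher level in AAV-GFP than in vehicle (log2 fold change 1.69, SE 0.32) and a 3.03-fold higher level in AAV-miR-34b/c (1.60, SE 0.20). The level of 262 CPM came from AAV-GFP library 4, with the next at 124 CPM. Without it, AAV-GFP against vehicle gave 1.33, and AAV-miR-34b/c against AAV-GFP changed from −0.10 (SE 0.28) to 0.26.

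*Aldh1l1* (ENSMUSG00000030088, chr6:90486427-90600203, plus strand) encodes 10-formyltetrahydrofolate dehydrogenase, a cytosolic enzyme of folate metabolism that has an aldehyde dehydrogenase domain. It had 304, 341, 293, 297 and 266 CPM in vehicle, 217 to 423 CPM (median 353) in AAV-GFP and 372 to 508 CPM (median 469) in AAV-miR-34b/c. Every AAV-miR-34b/c library lay above every vehicle library, and 5 of 7 above every AAV-GFP library, while AAV-GFP libraries lay on both sides of vehicle, with 4 above and 1 below all of them. Means were 300.2 ± 27.2 CPM (n = 5), 334 ± 67.5 (n = 7) and 452 ± 55.0 (n = 7). The log2 fold change was 0.16 (SE 0.17) for AAV-GFP against vehicle, 0.43 (SE 0.15) for AAV-miR-34b/c against AAV-GFP and 0.59 (SE 0.14) for AAV-miR-34b/c against vehicle. The antisense gene *Gm15756* (chr6:90596697-90599948) lies near the 3′ end of *Aldh1l1* without covering its last bases. The reads of this assay fall toward that end, and the strand setting of the counting is not given in the sources used here. The share of these counts that belongs to the antisense transcript was not tested.

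*Cbr1* (ENSMUSG00000051483, chr16:93605853-93610505, plus strand) encodes a cytosolic carbonyl reductase that acts on quinones, prostaglandins and lipid aldehydes. Its vehicle libraries had 113, 101, 180.4, 145 and 169 CPM, and its AAV-GFP libraries ran from 144 to 218 CPM (median 182). AAV-miR-34b/c libraries 1 and 2 had 301 and 298 CPM, whereas the other 5 had 109.7 to 139 CPM. The first 2 thus lay above, and the other 5 below, every AAV-GFP library. Means were 142 ± 34.5 CPM (n = 5), 180.0 ± 28.6 (n = 7) and 175 ± 85.9 (n = 7), and the mean of the other 5 AAV-miR-34b/c libraries was 125 ± 11.4 CPM (n = 5). With all libraries, the log2 fold change was 0.35 (SE 0.18) for AAV-GFP against vehicle, −0.05 (SE 0.24) for AAV-miR-34b/c against AAV-GFP and 0.31 (SE 0.28) for AAV-miR-34b/c against vehicle. Without AAV-miR-34b/c libraries 1 and 2, left out once their distance from the group had been noticed, the latter values were −0.55, then past the threshold, and −0.19, so the direction of *Cbr1* against vehicle rests on these libraries. The same libraries had 819 and 855 CPM of the neutrophil gene *S100a8*, which was at 21.1 to 203 CPM in the other 5. Whether neutrophils account for part of the *Cbr1* level in them was not tested.

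*Cbr3* (chr16:93683215-93690990, plus strand) is the neighbour and closest relative of *Cbr1*, with 74% identity over 1100 aligned bases. Its counts in AAV-miR-34b/c, 1 to 10 in a library, were too low to tell whether it shared the elevation of libraries 1 and 2. It had 2.39 and 3.18 CPM there, within the 0.282 to 3.57 CPM of its group, against 4.62 to 9.25 CPM in AAV-GFP and 1.33 to 3.29 CPM in vehicle.

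**Figure D2:**
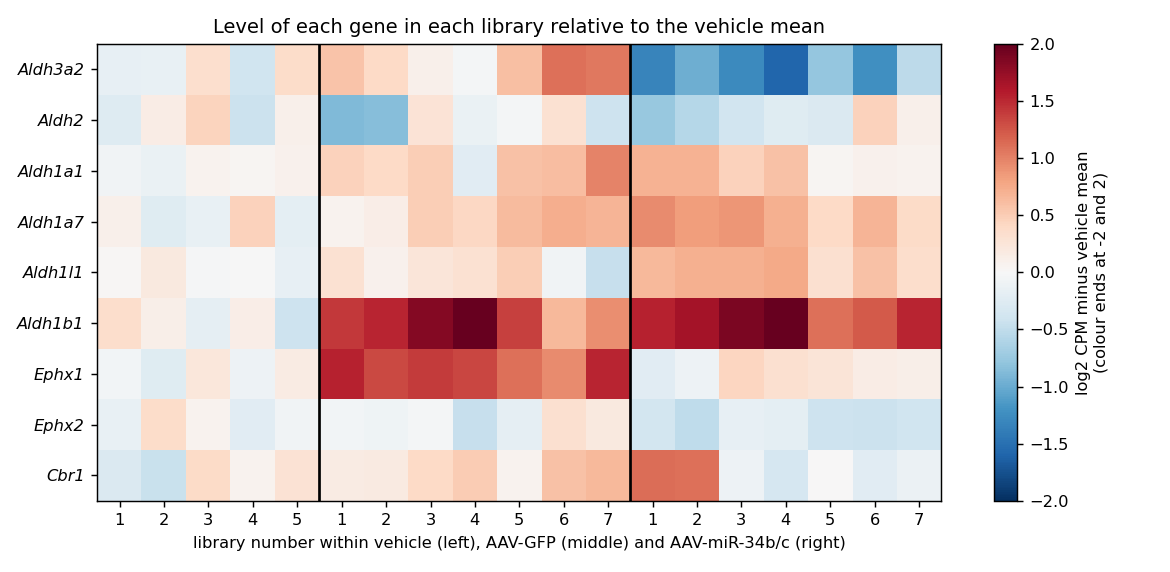
Level of each enzyme gene (vertical axis) in each library (horizontal axis, numbered within each group, vehicle first and AAV-miR-34b/c last) as log2 CPM minus the vehicle mean. Red is higher and blue is lower than vehicle, with colours ending at −2 and 2. *Aldh3a2* is blue in all 7 AAV-miR-34b/c libraries, *Ephx1* is red in all 7 AAV-GFP libraries and near vehicle in AAV-miR-34b/c, and the 2 dark *Cbr1* cells are AAV-miR-34b/c libraries 1 and 2.

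The 3 comparisons, of each TAA group with vehicle and of the TAA groups with each other, ask, how far livers of TAA-treated mice are from those of vehicle-treated mice, with or without the microRNAs, and what the microRNA vectors change. Each pair of these comparisons shares 1 group of libraries, so their values are set side by side only. Counts of members past the threshold of the fit over all genes (edgeR, adjusted p under 0.05) were placed beside the share of all genes past it. As the members were picked with these values known, nothing is read from the difference between the shares.

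In AAV-GFP livers compared to vehicle, 2 of 9 members were called, against 12.7% of 9522 genes. Both, *Aldh1b1* and *Ephx1*, were higher. Of all genes, 7.54% were called higher and 5.19% lower. In both, the groups did not overlap, which was the case for 4.79% of genes. The median log2 fold change of the 9 members was 0.45, against −0.01 over all genes tested, and 7 of 9 values were above 0.

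In AAV-miR-34b/c livers compared to AAV-GFP, 2 of 9 members were called, *Aldh3a2* and *Ephx1*, against 3.36% of 9252 genes. Both were lower. Of all genes, 1.42% were called lower and 1.95% higher. Both had groups without overlap, compared to 1.38% of genes. The median of the 9 values was −0.10, that of all genes −0.01, and 7 of 9 members were below 0.

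In AAV-miR-34b/c livers compared to vehicle, 4 of 9 members were called, against 21.9% of 9290 genes. Of these, *Aldh1a7*, *Aldh1l1* and *Aldh1b1* were higher, as were 12.2% of genes, and *Aldh3a2* was lower, as were 9.75%. Groups did not overlap for 3 members, all of these but *Aldh1a7*, and for 7.78% of genes. The median was 0.31, against 0.02 over all genes. With libraries of close pairs summed, *Aldh1a7* (0.71) and *Aldh1l1* (0.56) were no longer called in this comparison.

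**Figure D3:**
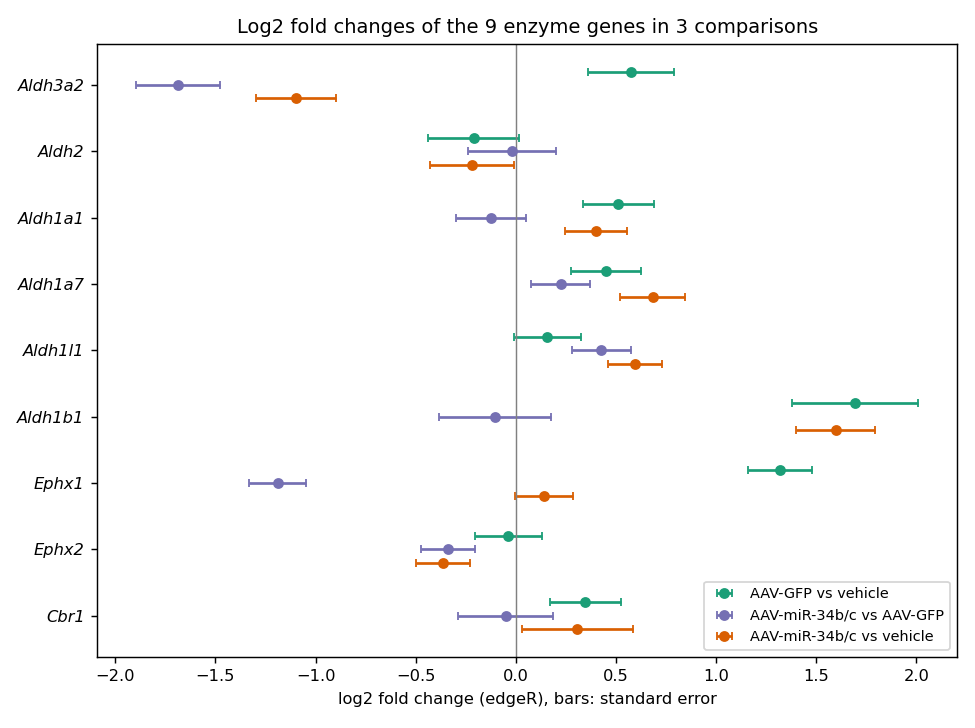
Log2 fold changes of the 9 enzyme genes (horizontal axis, fitted by edgeR) in the 3 comparisons, with bars for the standard error. *Ephx1* lies at 1.32 in AAV-GFP against vehicle, at −1.19 in AAV-miR-34b/c against AAV-GFP and at 0.14 in AAV-miR-34b/c against vehicle, whereas *Aldh3a2* lies at −1.69 and −1.10 in both comparisons of AAV-miR-34b/c and *Aldh1b1* at 1.69 and 1.60 in both comparisons with vehicle.

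The 9 genes did not vary as 1 group across the 19 libraries. Correlations of log2 CPM are given as a description of these libraries, which share the group differences shown above. Of the member pairs, the highest r over all libraries was 0.65, between *Aldh3a2* and *Ephx2*, and the lowest was −0.79, between *Aldh3a2* and *Aldh1l1*. After subtraction of group means, *Aldh3a2* and *Aldh1l1* still ran in opposite directions (r = −0.67), as did *Aldh3a2* and *Aldh1b1* (r = −0.79), while *Aldh1l1* and *Aldh1b1* ran together (r = 0.58). AAV-GFP libraries 6 and 7 were the highest of their group in *Aldh3a2* (146 and 140.0 CPM). They were the lowest in *Aldh1l1* (285 and 217 CPM) and *Aldh1b1* (53.6 and 65.7 CPM). How far these values of r rest on such libraries was not tested. The neighbours *Aldh1a1* and *Aldh1a7* had r = 0.62 over all libraries and 0.49 within groups. *Ephx1* and *Ephx2* had r = 0.25 over all libraries.

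Among 9919 other genes, the one most like each of 8 members over the 19 libraries is given. *Ephx1* was nearest to *Gsta2* (r = 0.94), a glutathione transferase with 12.8 ± 2.03 CPM in vehicle (n = 5), 65.3 ± 12.5 in AAV-GFP (n = 7) and 13.5 ± 2.76 in AAV-miR-34b/c (n = 7). The likeness came from the group levels, since r within groups was 0.27. *Aldh1l1* was nearest to *C3*, the central complement component, with r = 0.97 over all libraries and 0.93 within groups, and *C3* had 2827 ± 747 CPM in vehicle, 3400.0 ± 1061 in AAV-GFP and 6714 ± 1460 in AAV-miR-34b/c.

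For *Aldh2* the nearest was *Ftcd*, an enzyme of histidine breakdown and folate metabolism, with r = 0.88 over all libraries and 0.92 within groups. *Aldh1b1* was nearest to *Ccdc80*, an extracellular matrix protein (0.93 and 0.77). The others were *Tars*, a threonyl-tRNA synthetase, for *Aldh1a7* (0.87 and 0.68), *Hsd17b11*, a lipid droplet dehydrogenase, for *Ephx2* (0.85 and 0.74), *Elob*, a subunit of elongin, for *Cbr1* (0.84 and 0.82), and *Gm4952* for *Aldh1a1* (0.83 in both).

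Related enzymes that are not among the 9 genes were tested in the same fits. Of 15 other aldehyde dehydrogenase genes, 7 had enough counts. *Aldh3b2* had no count in any library. In AAV-GFP against vehicle, 1 of the 7 rose, *Aldh5a1*, the succinate semialdehyde dehydrogenase (log2 fold change 0.55, SE 0.16, edgeR adjusted p = 0.0305), from 23.8 ± 2.12 CPM (n = 5) to 34.8 ± 3.94 (n = 7). It was also higher in AAV-miR-34b/c than in vehicle (0.72, SE 0.22, edgeR adjusted p = 0.0263). Both calls of *Aldh5a1* were lost with close pairs summed (edgeR adjusted p = 0.195 and 0.155). The call in AAV-GFP was also lost with no filter on low counts (edgeR adjusted p = 0.066), in 1 fit over all groups (0.072) and without vehicle library 1, 4 or 5 or AAV-GFP library 1, 2 or 3 (0.52 to 0.56), and that in AAV-miR-34b/c with library size only (edgeR adjusted p = 0.080) and without vehicle library 1, 4 or 5 or AAV-miR-34b/c library 3 or 4 (0.64 to 0.73).

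*Aldh6a1*, the methylmalonate semialdehyde dehydrogenase of valine breakdown, fell from 159 ± 44.2 CPM in vehicle to 88.4 ± 20.6 in AAV-miR-34b/c (−0.85, SE 0.21, edgeR adjusted p = 0.00924, and 0.065 with close pairs summed). *Aldh16a1* rose in the same comparison (0.55, SE 0.16, edgeR adjusted p = 0.0200, 0.122 with close pairs summed and 0.077 with library size only), a call lost without vehicle library 5 (0.53). With the microRNA vectors against AAV-GFP, edgeR called 0 of the 7, with 1 at an unadjusted p under 0.05 and 0 called by DESeq2 or limma-voom. *Aldh6a1* had the smallest p of them (−0.47, SE 0.18, edgeR adjusted p = 0.189), and it was called with library size only (−0.68, edgeR adjusted p = 0.0208) and without AAV-miR-34b/c libraries 1 and 2 (−0.67, edgeR adjusted p = 0.0319).

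Other carbonyl and aldo-keto reductases, which reduce aldehydes, ketones and steroids, had 13 of 19 genes with enough counts in the first 2 comparisons and 12 in the last. *Cbr3* rose in AAV-GFP against vehicle (log2 fold change 1.39, SE 0.34, edgeR adjusted p = 0.0119) and fell in AAV-miR-34b/c against AAV-GFP (−1.95, SE 0.41, edgeR adjusted p = 0.0106), without overlap of the groups in either. Its counts were low, 1 to 30 in a library, and the call in AAV-GFP was lost with close pairs summed (edgeR adjusted p = 0.089). *Akr1d1*, a reductase of bile acid synthesis, was the 1 gene of the list that fell in AAV-GFP (−0.77, SE 0.22, edgeR adjusted p = 0.0257), a call lost with close pairs summed and without vehicle library 1, 2 or 4 or AAV-GFP library 3 (−0.72 to −0.62), and in 1 fit over all groups. In this comparison edgeR called 2 genes of the list, DESeq2 5 and limma-voom 9. *Akr1c6*, an enzyme of steroid metabolism, gave −0.61 (edgeR adjusted p = 0.0581) and was called by DESeq2 (adjusted p = 0.0366) and limma-voom (adjusted p = 0.00165), and by edgeR without AAV-GFP library 6 (−0.74) or 7 (−0.73).

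In AAV-miR-34b/c against vehicle, 5 genes of the list fell and 0 rose, all 5 of the *Akr1c* family of hydroxysteroid dehydrogenases. *Akr1c6* had the smallest adjusted p, with 1438 ± 87.7 CPM (n = 5) against 650.5 ± 180 (n = 7) and no overlap (−1.14, SE 0.19, edgeR adjusted p = 0.00104). The others were *Akr1c12* (−0.98), *Akr1c13* (−1.14), *Akr1c14* (−1.44) and *Akr1c20* (−1.09). With close pairs summed, 3 genes of the list were called, *Akr1c6* among them, whereas DESeq2 called 6 and limma-voom 8. *Akr1d1* gave −0.99 by edgeR (adjusted p = 0.0690) and was called by both other tools. By edgeR, *Akr1d1* was called with no filter on low counts, with library size only (−1.19), in 1 fit over all groups, without AAV-miR-34b/c library 1 (−1.30) or 2 (−1.26), and without both (−1.81, adjusted p = 1.09e-05). In AAV-miR-34b/c against AAV-GFP, *Akr1c19* fell besides *Cbr3* (−0.88, SE 0.19, edgeR adjusted p = 0.0125), a call lost with close pairs summed. These genes are close copies of one another, and how the counting treated reads that fit several of them is not given in the sources used here. With AAV-miR-34b/c libraries 1 and 2 left out, 6 genes of the list were called against AAV-GFP and 9 against vehicle.

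The other epoxide hydrolases gave 1 gene with enough counts of 3, *Lta4h*, which encodes leukotriene A4 hydrolase. *Ephx3* and *Ephx4* had at most 3 counts in a library. *Lta4h* was not called in any comparison by edgeR, DESeq2 or limma-voom, nor was its unadjusted p under 0.05. Its log2 fold changes were −0.04 (SE 0.28, edgeR adjusted p = 0.945), −0.46 (SE 0.24, edgeR adjusted p = 0.373) and −0.49 (SE 0.26, edgeR adjusted p = 0.176) in the order above.

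Alcohol dehydrogenases, which form aldehydes from alcohols, and aldehyde oxidases, which oxidize aldehydes and drugs, had 7 of 8 genes with enough counts. *Aox1* had 12.4 to 26.7 CPM in vehicle, 22.5 to 55.0 in AAV-GFP and 6.76 to 25.0 in AAV-miR-34b/c, a range that overlapped a little with AAV-GFP and widely with vehicle. It rose in AAV-GFP against vehicle (1.06, SE 0.24, edgeR adjusted p = 0.00819) and fell in AAV-miR-34b/c against AAV-GFP (−1.33, SE 0.29, edgeR adjusted p = 0.0120). *Adh4*, an alcohol dehydrogenase that also acts on retinol, was higher than in vehicle in both TAA groups (0.87, SE 0.20, edgeR adjusted p = 0.00895 in AAV-GFP, and 0.92, SE 0.25, edgeR adjusted p = 0.0150 in AAV-miR-34b/c). All 4 calls were lost with close pairs summed, with edgeR adjusted p of 0.078, 0.131, 0.058 and 0.104 in the order given.

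**Figure D4:**
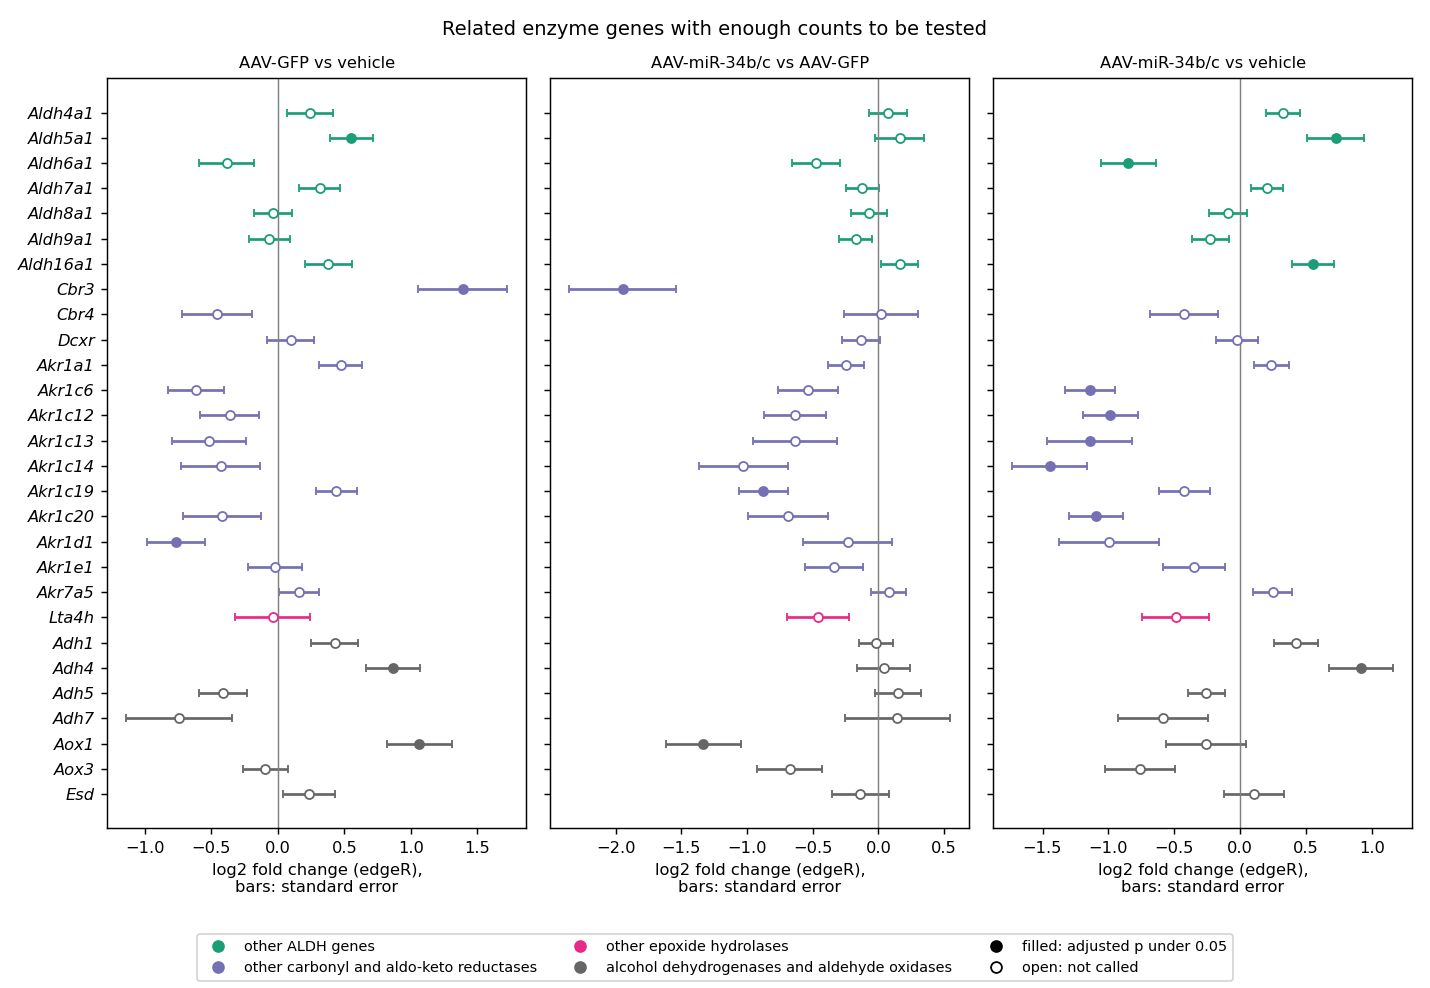
Log2 fold changes with standard errors (horizontal axes, fitted by edgeR) of related enzyme genes with enough counts, in the 3 comparisons from left to right. Colours mark the list and filled circles an adjusted p under 0.05. *Cbr3* and *Aox1* are filled to the right in AAV-GFP against vehicle and to the left in AAV-miR-34b/c against AAV-GFP, and 5 *Akr1c* genes are filled to the left in AAV-miR-34b/c against vehicle.

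Reference genes of regulators that are known to act on these enzymes were tested as well. NRF2 responds to electrophiles and CAR to drugs such as phenobarbital. Of their 9 reference genes, 8 were tested in AAV-GFP against vehicle and 7 in the other comparisons. The 1 that edgeR called in AAV-GFP, where DESeq2 called 2 and limma-voom 3, was *Gclc*, the catalytic subunit of glutathione synthesis, which rose from 145 ± 11.1 CPM (n = 5) to 419 ± 65.5 (n = 7) (log2 fold change 1.53, SE 0.16, edgeR adjusted p = 6.92e-06). It was also the 1 that edgeR and DESeq2 called in AAV-miR-34b/c against AAV-GFP, where limma-voom called 2, and it fell to 170.3 ± 22.7 CPM (n = 7) (−1.31, SE 0.14, edgeR adjusted p = 2.97e-05), and in each case the groups did not overlap. *Gclm*, the modifier subunit of the same enzyme, gave 0.00 (SE 0.16, edgeR adjusted p = 0.995) and −0.33 (SE 0.13, edgeR adjusted p = 0.198). Against vehicle, edgeR called 0 of 7 in AAV-miR-34b/c, with 2 at an unadjusted p under 0.05, 1 called by DESeq2 and 2 by limma-voom, and *Gclm* had the smallest p (−0.32, SE 0.13, edgeR adjusted p = 0.0861).

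PPAR-alpha is the fatty acid sensor of hepatocytes. Of its 9 reference genes, 8 were tested. *Vnn1* rose in AAV-GFP against vehicle (1.22, SE 0.38, edgeR adjusted p = 0.0395), a call lost without vehicle library 1, 2, 3 or 4 or AAV-GFP library 1, 2 or 7 (0.99 to 1.28), by limma-voom (adjusted p = 0.055) and with close pairs summed (edgeR adjusted p = 0.164). In AAV-miR-34b/c against AAV-GFP, *Acot1* (−1.96, SE 0.36, edgeR adjusted p = 0.00382) and *Cyp4a14* (−2.67, SE 0.50, edgeR adjusted p = 0.00477) fell without overlap of the groups. *Acot1*, an acyl-CoA thioesterase, was lost at an adjusted p of 0.051 with close pairs summed (edgeR). Against vehicle, *Acot1* fell (−1.55, SE 0.47, edgeR adjusted p = 0.0281). This call was lost with close pairs summed, by limma-voom (adjusted p = 0.058) and without vehicle library 3 or 5 or AAV-miR-34b/c library 3 or 4 (−1.51 to −1.11).

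Several of these enzymes are known to differ along the liver lobule, so zonal genes were placed beside them. Of 9 genes of pericentral hepatocytes, 3 fell in AAV-GFP against vehicle. *Oat*, ornithine aminotransferase, had 344 ± 52.8 CPM in vehicle (n = 5) and 157 ± 19.6 in AAV-GFP (n = 7) without overlap (−1.13, SE 0.15, edgeR adjusted p = 8.02e-05). The others were *Slc1a2* (−1.03) and *Glul* (−0.75, lost with close pairs summed). In AAV-miR-34b/c, *Oat* was again lower than vehicle (−1.12, SE 0.15, edgeR adjusted p = 0.000229), with *Cyp2e1*, *Rgn* and *Lect2* (−0.69 to −0.63). With close pairs summed, *Oat* was the 1 of these 4 still called. *Glul*, glutamine synthetase, rose in AAV-miR-34b/c against AAV-GFP (0.78, SE 0.20, edgeR adjusted p = 0.0390), a call lost without AAV-GFP library 1, 2, 3, 5 or 6 or AAV-miR-34b/c library 3, 4, 5, 6 or 7 (0.69 to 0.82), with library size only and with close pairs summed.

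Among 8 periportal genes, in AAV-miR-34b/c against vehicle *Cps1*, the first enzyme of the urea cycle, fell (−0.90, SE 0.20, edgeR adjusted p = 0.00510), and *Hsd17b13* rose (0.57, SE 0.14, edgeR adjusted p = 0.00907). Both calls were lost with close pairs summed. With the microRNA vectors against AAV-GFP, edgeR called 0 periportal genes, with 1 at an unadjusted p under 0.05, 0 by DESeq2 and 1 by limma-voom, and *Cps1* had the smallest p (−0.41, SE 0.17, edgeR adjusted p = 0.243). *Cps1* was called there by limma-voom (−0.61), with library size only (−0.62) and without AAV-miR-34b/c libraries 1 and 2 (−0.65), and in AAV-GFP against vehicle, where edgeR gave −0.50 (adjusted p = 0.0668), it was called by DESeq2 (−0.49), by limma-voom (−0.44) and without vehicle library 3 (−0.60). Which zone the 9 enzymes were expressed in was not tested.

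The markers of liver cell types moved with the groups in part. All 8 hepatocyte markers were present, and their summed level was 80658 to 104000 CPM in vehicle, 82241 to 93912 in AAV-GFP and 85179 to 134594 in AAV-miR-34b/c. Of them, *Fgb* was called higher in AAV-miR-34b/c than in AAV-GFP, and *Trf*, *Serpina1a* and *Fgb* than in vehicle. AAV-GFP against vehicle gave 0 called by edgeR, 0 at an unadjusted p under 0.05, 0 by DESeq2 and 1 by limma-voom. Stellate cell markers (7, 6 and 5 of 8 tested in the order of the comparisons) summed to 112 to 208 CPM in vehicle, 136 to 227 in AAV-GFP and 79.2 to 218 in AAV-miR-34b/c. In AAV-GFP against vehicle 2 rose and 1 fell, and in AAV-miR-34b/c against AAV-GFP 2 fell, *Col1a1* (−1.92) and *Col3a1* (−1.46). Against vehicle, AAV-miR-34b/c gave 0 stellate calls by edgeR, 0 at an unadjusted p under 0.05, 0 by DESeq2 and 1 by limma-voom.

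Macrophage markers summed to 307 to 578, 249 to 433 and 378 to 540.4 CPM in the same order of groups. Of 8, 1 rose and 4 fell in AAV-GFP against vehicle, and 1 rose and 1 fell in each other comparison. Endothelial markers summed to 215 to 261, 182 to 246 and 235 to 301 CPM. Of the 7 tested, edgeR called 0 in AAV-GFP against vehicle, with 1 at an unadjusted p under 0.05, 0 by DESeq2 and 1 by limma-voom, and *Lyve1* was higher in AAV-miR-34b/c than in AAV-GFP (1.06) and vehicle (1.46), with *Cdh5* lower than vehicle (−1.25). Cholangiocyte markers, 2 of 6 tested, summed to 18.6 to 40.8, 53.3 to 97.1 and 49.9 to 119 CPM, with 1 called higher in each comparison with vehicle. Between the TAA groups edgeR called 0 of them, with 1 at an unadjusted p under 0.05 and 0 by DESeq2 or limma-voom. The sum hides opposite directions there. *Sox9* had a mean of 34.2 CPM in AAV-GFP and 48.6 in AAV-miR-34b/c, whereas *Spp1* had 29.1 and 18.4. The markers with too few counts to be tested, *Krt7*, *Krt19*, *Epcam* and *Cldn7*, also had lower means in AAV-miR-34b/c than in AAV-GFP. Lymphocyte and neutrophil markers, 2 of 8 tested, summed to 18.2 to 77.7, 16.1 to 70.7 and 61.7 to 1852 CPM. Those tested, *S100a8* and *S100a9*, were higher in AAV-miR-34b/c than in both other groups, and in AAV-GFP against vehicle edgeR, DESeq2 and limma-voom called 0, with 0 at an unadjusted p under 0.05. What part these cells have in the levels of the 9 enzymes was not tested. For the markers of all cell types, no result with close pairs summed or with a library left out is given.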

How the data were processed

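Per the labels, RNA of whole liver was made into QuantSeq 3′ mRNA libraries and sequenced single-end. The authors' provider filtered and trimmed the reads, aligned them and counted them by gene, and deposited 1 table of raw counts for 19 libraries. The submitters' processing notes name STAR and mm10. The annotation release, strandedness of counting and handling of molecular identifiers are not given in the sources used here.

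From the deposited counts of 31053 genes, genes with a minimum count of 10 and a total of 15 (filterByExpr) were normalized by TMM and tested between pairs of groups with the quasi-likelihood test of edgeR 4.0.16 (R 4.3.3). P-values were two-sided and adjusted by Benjamini-Hochberg over all genes tested, with a threshold of 0.05. Log2 CPM used a prior count of 2. DESeq2 1.42.0 and limma 3.58.1 (voom) served as alternatives. The procedure was tested on simulated data with independent libraries, without the close pairs seen here, so that test does not cover their effect. Depth per library was 2214073 to 5208405 counts, which limits precision most for low genes.

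The 9 members and all lists were chosen with earlier results of these data known. Text names, for each list, the most significant called gene that rose and that fell, or else the gene of smallest p. Further genes of short counts were named after their values were seen. They were followed through the alternatives only as counts of their list, and the cell type markers only as counts by DESeq2 and limma-voom. Alternatives were other filters and scalings, 1 fit over all groups, a replicate block and leaving out each library. Summing close pairs and leaving out AAV-miR-34b/c libraries 1 and 2 were chosen after seeing the data. Some genes that these rules select are not reported here.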

Additional observations from a re-analysis of the deposited data

Results flagged for a closer look

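In 36 groups of 5 or 7 values, covering total counts and the expression of the 9 enzyme genes, *Cbr3* and *Aox1* in each of the 3 groups, the highest or lowest library was compared with its nearest neighbour by Dixon's ratio, and 2 exceeded the 95% critical value, where chance gives about 1.8. The total count of AAV-GFP library 5 was 4383805, with the nearest library of its group at 3239809. *Aldh1b1* in AAV-GFP library 4 was at 262 CPM, with the nearest at 124 CPM. The cause of either value was not tested.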

How the results depend on the processing

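Of 603 recomputed log2 fold changes of the 9 enzyme genes, 602 stayed within the spread between replicates and none changed sign while called. The exception was *Cbr1*, at −0.55 in AAV-miR-34b/c against AAV-GFP without AAV-miR-34b/c libraries 1 and 2.

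In AAV-GFP against vehicle, 1212 genes were called, against 2687 by limma-voom, 3136 with a replicate block and 227 with close pairs summed. Leaving out 1 library gave 689 to 1859, with 728 without vehicle library 1, 689 without vehicle library 4, 806 without AAV-GFP library 3 and 1859 without AAV-GFP library 6. Of the 9 enzymes 2 were called, 4 with library size only, 3 by DESeq2 and 2 to 3 with a library left out. In AAV-miR-34b/c against AAV-GFP, 311 genes were called, 624 with library size only, 542 by DESeq2, 813 by limma-voom, 142 with the block, 87 with close pairs summed, 720 without AAV-miR-34b/c libraries 1 and 2, and 209 to 344 with a library left out. In AAV-miR-34b/c against vehicle, 2037 genes were called, 3839 by limma-voom, 945 with the block, 331 with close pairs summed, 3878 without those libraries, and 1267 to 2695 with a library left out (1328 without vehicle library 1, 1267 without vehicle library 4). Of the enzymes 4 were called, 2 with close pairs summed. The cause of these differences was not tested, beyond the smaller number of samples after summing.

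Same-numbered libraries deviated together with r of −0.09 to 0.22, −0.28 to 0.21 and −0.23 to 0.28 in the 3 comparisons, so a pairing by number was not shown. Values of r over so few pairs cannot tell whether some same-numbered libraries share a batch. With the block, *Vnn1* (0.79), *Aldh5a1* (0.59) and *Aldh16a1* (0.53) lost a call named in the report, as did *Glul* (0.80) between the TAA groups, and *Akr1c6* (−0.95) and *Aldh6a1* (−0.51) gained one in AAV-GFP against vehicle and *Akr1d1* (−1.01) in AAV-miR-34b/c against vehicle.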
